A study of Mus musculus with 6 samples.

Results

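This report concerns 10 genes of the T and natural killer (NK) cell lineages, Cd2, Lck, Tcf7, Bcl11b, Cd3e, Notch1, Prf1, Gzmb, Tbx21 and Eomes, and the open chromatin in and within 20 kb of each. The genes were named for their lineage, without a threshold on any measured value, among 21887 protein-coding genes of the RefSeq mouse annotation. Earlier results of these data were known when the genes were chosen. Open chromatin was mapped with ATAC-seq, an assay whose transposase cuts and tags accessible DNA. The material was lineage-depleted bone marrow of C57BL/6 mice, a fraction rich in blood stem and progenitor cells. There were 3 wild-type samples (genotype label UTX_WT) and 3 Utx knockout samples (UTX_KO), and the authors deposited 1 list of called peaks for each. Utx, also called Kdm6a, encodes a demethylase of lysine 27 of histone H3. The peak lists do not show the deleted part of Utx, so the genotype labels were not checked. The labels used here give no sex, age, Cre driver, deleted exons or pooling of animals, and do not say that samples came from separate mice, so p-values measure only the spread between these samples, which may be technical.

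T and NK cells arise from lymphoid progenitors of the bone marrow. Progenitors that reach the thymus receive Notch signals, which switch on Tcf7 and Bcl11b and commit the cells to the T lineage, after which the CD3 complex and the kinase Lck carry signals from the T cell receptor. NK cells and cytotoxic T cells depend on the T-box factors Tbx21 (T-bet) and Eomes and kill targets with perforin (Prf1) and granzyme B (Gzmb). Mature T and NK cells carry surface proteins that lineage depletion is meant to remove.

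A total of 48 merged regions lay near the 10 genes, of 62098 regions near any protein-coding gene and 75961 in all. A region is a stretch where peaks of the samples overlap by at least 1 bp. It is called lost where each of the 3 wild-type samples had a peak and none of the knockout samples did, and gained in the opposite case. Near these genes 4 regions were gained, 3 at Cd2 and 1 at Lck, and 1 was lost, at Prf1. Genome-wide, 4.05% of the regions near protein-coding genes were gained and 10.7% were lost, against 8.33% and 2.08% here. With so few called regions these shares are a description, and most of the gains came from 1 gene. A further 21 regions (43.8%) had a peak in all 6 samples, beside 42.9% of the regions near all genes. The remaining 22 were found in some samples of one or both genotypes, 11 of them in more knockout than wild-type samples, 10 in more wild-type samples and 1 in equal numbers.

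Wild-type lists held 57405 to 57917 peaks and knockout lists 44576 to 50249, so every knockout list was shorter. Median peak width was 403 to 411 bp in wild type and 427 to 441 bp in knockout. The lists hold coordinates alone, so read depth is unknown, and list length moves with genotype. Values at equal list length (the 44576 widest peaks of every sample) and scaled to list length stand with the alternatives. Equal length drops the narrowest peaks, most of them from wild type. Scaling raises every knockout value and lowers every wild-type value. In bulk samples, fewer cells of a type and less open chromatin per cell cannot be told apart.

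Peak coverage of the promoter windows showed which windows around gene starts had a peak. RefSeq (GRCm38.p6, the assembly of mm10) gave 11 promoter windows, from 250 bases before to 50 after a gene start, for 9 of the 10 genes. The gene without a window was Cd2, so its start was not examined in this way. Peaks covered part of 3 of these windows, and 8 had no peak in any sample: both starts of Tcf7, the upstream start of Lck, and the starts of Bcl11b, Cd3e, Gzmb, Tbx21 and Eomes. Inside Eomes, beyond its window but within 1 kb of the start, chr9:118478922-118479413 had a peak in all 6 samples. The Notch1 window was covered over all 300 bases in all 6 samples. The Prf1 window was covered over 195 and 219 bases in knockout samples 1 and 2 and over 0 bases in the other samples. The downstream start of Lck, which lies inside the gene and corresponds to its proximal promoter, was covered over 198 bases in knockout sample 3 alone.

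The bases before these 3 starts are shown because they are the only listed promoter sequences of the set that any peak reached. Each reads 5′ to 3′ on the strand of its gene, and capitals mark GGAAG or its reverse complement CTTCC, a form of the motif bound by ETS factors. The shorter GGAA was not searched or marked. The stretches are chr2:26503823-26504072 (minus strand) for Notch1, chr10:61297586-61297750 (plus strand, up to the annotated gene span) for Prf1 and chr4:129558373-129558622 (minus strand) for the downstream start of Lck.
Notch1: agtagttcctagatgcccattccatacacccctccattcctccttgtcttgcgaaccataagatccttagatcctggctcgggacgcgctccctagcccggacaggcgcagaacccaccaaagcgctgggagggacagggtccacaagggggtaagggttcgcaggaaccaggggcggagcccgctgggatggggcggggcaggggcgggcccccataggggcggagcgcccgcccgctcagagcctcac
Prf1: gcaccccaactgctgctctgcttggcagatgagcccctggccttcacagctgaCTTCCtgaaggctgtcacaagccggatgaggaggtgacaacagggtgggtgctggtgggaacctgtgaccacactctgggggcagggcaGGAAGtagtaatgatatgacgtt
Lck: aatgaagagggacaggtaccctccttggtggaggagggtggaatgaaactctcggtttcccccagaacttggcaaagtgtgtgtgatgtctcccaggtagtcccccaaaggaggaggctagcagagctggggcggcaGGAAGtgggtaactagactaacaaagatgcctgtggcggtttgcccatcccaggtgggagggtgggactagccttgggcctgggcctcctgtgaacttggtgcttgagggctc

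The Notch1 stretch has a GC content of 66.0% and held no match to GGAAG or CTTCC, though it holds the shorter GGAA. The Lck stretch held 1 match to GGAAG or CTTCC and the Prf1 stretch 2. Among the same 250 bases of all 32851 listed mouse promoters 64.1% held GGAAG on either strand, and 47.8% did within the 165 bases used for Prf1. The motif of GATA factors was searched on both strands as AGATAA. The motif of RUNX factors was searched as TGTGGT, that of RBPJ, the DNA-binding partner of Notch, as TGGGAA, and that of T-box factors as GGTGTG. Prf1 had 1 match each to the RUNX and RBPJ motifs, which occur in 9.52% and 15.2% of promoter stretches of that length. These did not overlap the GGAAG and CTTCC matches. AGATAA was found in none of the 3 stretches (7.17% of promoters over 165 bases and 9.99% over 250), and neither was GGTGTG (11.0% and 16.3%). The Lck and Notch1 stretches held neither the RUNX nor the RBPJ motif, which 14.0% and 21.6% of promoters held over 250 bases. These matches are letters in a window, not measured binding sites.

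**Figure D1:**
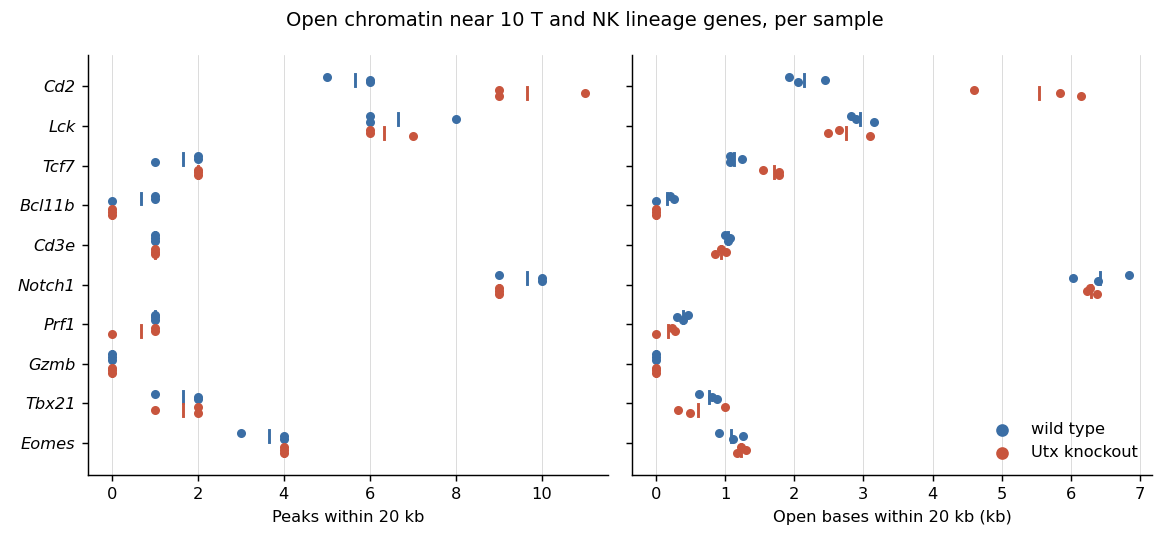
Peaks (left) and bases covered by peaks (right, in kb) within 20 kb of each of the 10 genes, with 1 point per sample and a vertical bar at the mean of 3 samples. For Cd2 all knockout points lie to the right of all wild-type points, while Gzmb is at 0 in every sample.

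Cd2 held the clearest difference between the genotypes. It encodes an adhesion receptor of T and NK cells, which in mice is also carried by B cells. Near it lay 5, 6 and 6 peaks in wild-type samples 1, 2 and 3 and 9, 11 and 9 in knockout samples 1, 2 and 3. These peaks covered 1922, 2444 and 2049 bases in wild type and 4606, 5846 and 6152 in knockout. Every knockout value was above every wild-type value for both measures, although the knockout lists were shorter as a whole.

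Open bases near Cd2 were thus 2138 ± 272 in wild type and 5535 ± 819 in Utx knockout (SD, n = 3 each), a ratio of 2.59. The two-sided exact permutation p was 0.1, the smallest that 3 samples against 3 allow, and the Benjamini-Hochberg adjusted p over 16985 genes with a region was 0.169 by the exact permutation test. No gene can pass 0.05 in this design. Among the 16985 genes, open bases were higher in every knockout sample than in any wild-type sample for 9.9% and lower for 49.4%, and peak numbers were higher for 4.24% and lower for 27.6%. Of the 9 members with a region, open bases were higher in this way for 2 (Cd2 and Tcf7) and lower for 1 (Prf1), and peak numbers were higher for Cd2 and lower for none. The median difference in open bases, knockout minus wild type, was -126 over these 9 and -358 over all 16985 genes.

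The 3 gained regions lay outside Cd2, whose annotated span is chr3:101275908-101287939. The region chr3:101289283-101289899, 1344 bp beyond the higher-numbered end of the gene, was covered over 524, 543 and 604 bases in knockout samples 1, 2 and 3 and had no wild-type peak. Next to it, chr3:101290559-101291550 was covered over 405, 777 and 992 bases in the knockout samples. On the other side of the gene, 9811 bp from its end, chr3:101265670-101266097 was covered over 286, 285 and 428 bases. The nearest other protein-coding gene to each of these regions was Igsf3, at 85122 bp or more.

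**Figure D2:**
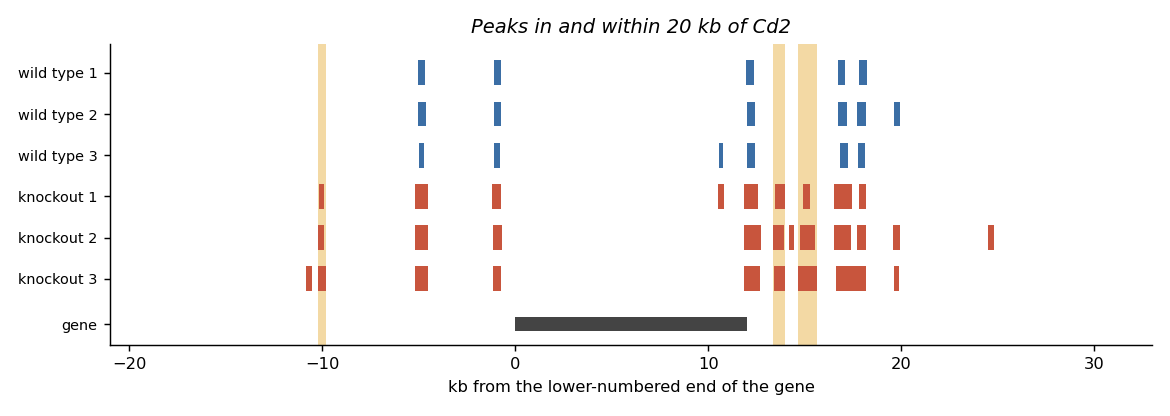
Peaks of each sample (rows) in and within 20 kb of Cd2, drawn to scale as bars against the distance in kb from the lower-numbered end of the gene, with the gene as a dark bar. Shaded bands mark the 3 gained regions, where only knockout samples have peaks; in each of the 4 regions shared by all samples the summed width of the bars is greater in every knockout sample.

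The 4 regions near Cd2 that were open in all 6 samples were each wider, by the summed width of a sample's peaks, in every knockout sample than in any wild-type sample. The region across the higher-numbered end of the gene, chr3:101287745-101288637, was covered over 417, 427 and 434 bases in wild type and 714, 887 and 835 in knockout, a ratio of means of 1.91. At chr3:101270704-101271378 coverage was 373, 391 and 282 bases in wild type and 643, 638 and 675 in knockout. The widest, chr3:101292435-101294149, had 778, 902 and 799 against 1257, 1316 and 1561 bases, from 2 peaks in each sample except knockout sample 3, where 1 peak spanned it.

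The remaining shared region, 700 bp from the lower-numbered end, showed the smallest shift, from 354, 401 and 335 to 453, 445 and 443 bases. Each of the 4 had an exact permutation p of 0.1 and an adjusted p of 0.253 over 31159 regions open in all samples. Near all protein-coding genes, 11.9% of such regions were wider in every knockout sample and 27.7% narrower. Inside the body of Cd2, away from its ends, the only region was a narrow one found in wild-type sample 3 and knockout sample 1.

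The gains at Cd2 were uncommon but not singular. Of the 16985 genes, 13.9% had at least 1 gained region and 36.3% at least 1 lost region. Among the members these numbers were 2 and 1 of the 9. Cd2 had 3 gained and 0 lost of 12 regions, and 110 genes (0.648%) had at least 3 gained and 0 lost. Among those 110, Vxn (3 of 3 regions gained), Sertad4 (4 of 5) and Gpr12 (3 of 4) had the highest gained shares. A difference in open bases as large as that at Cd2 or larger, toward knockout, was seen at 64 genes, Cd2 included.

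Lck, the Src-family kinase that starts T cell receptor signalling, differed in both directions. Its window (gene span chr4:129548344-129573641) held 6, 8 and 6 peaks in wild type and 6, 6 and 7 in knockout. Open bases were 2821, 2889 and 3153 in wild type and 2646, 2495 and 3090 in knockout, and the groups overlapped (exact permutation p = 0.4). The gained region, chr4:129584160-129584632, was covered over 369, 370 and 444 bases in the knockout samples. It lay 10519 bp above Lck, but 5580 bp from Fam167b, which is closer to it.

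Inside Lck the pattern was the opposite: open bases in the gene body alone averaged 912 in wild type and 412 in knockout, with groups that did not overlap (exact permutation p = 0.1). Within 50 kb they were also lower in knockout, 6700 against 6012 (exact permutation p = 0.1). Within 20 kb, 49.4% of all genes with a region were lower in every knockout sample. The share over all genes was not computed for the gene body or 50 kb. Of the 4 regions inside Lck, chr4:129556290-129557043 was open in all samples. It had 754, 318 and 617 bases in wild type and 210, 419 and 317 in knockout. On either side of it lay a region found in 2 wild-type samples and no knockout sample, and the last, at the proximal promoter, was found in knockout sample 3 alone. The difference at the shared region alone did not hold up against the spread, since the groups overlapped (exact permutation p = 0.2). Further regions of the window lie at other genes: the one at chr4:129542337-129543241 overlaps Hdac1, with 655 to 905 bases in wild type and 688 to 822 in knockout.

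The transcription factors of T cell commitment had few open regions. Tcf7 encodes TCF1, which opens chromatin at T cell genes after Notch signalling. Inside Tcf7, chr11:52268176-52268902 was covered over 622, 643 and 727 bases in knockout samples 1, 2 and 3, over 326 bases in wild-type sample 2, and had no peak in wild-type samples 1 and 3. It was not called gained because of the single wild-type peak. The only other region of the Tcf7 window in several samples, chr11:52231504-52232695, overlaps Skp1 and had 870 to 1067 bases in wild type and 930 to 1133 in knockout.

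Open bases near Tcf7 were 1069, 1239 and 1067 in wild type and 1552, 1776 and 1777 in knockout, a ratio of 1.51 with groups that did not overlap (exact permutation p = 0.1, adjusted p = 0.169). Most of this difference came from the internal region. Its promoters had no peak.

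Bcl11b, the zinc finger factor that fixes T cell identity, was almost without peaks over a window of 134 kb. Wild-type samples 1 and 2 had 1 peak each, of 199 and 268 bases at different places, and wild-type sample 3 and all knockout samples had none. The peak of wild-type sample 2 crossed the higher-numbered end of the gene.

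Notch1, the receptor that directs progenitors to the T lineage, was the most open member in wild type, and within 20 kb of it the genotypes did not differ beyond the spread. It had 9, 10 and 10 peaks in wild type and 9 in each knockout sample, with 6838, 6037 and 6394 open bases in wild type and 6274, 6232 and 6384 in knockout (exact permutation p = 0.7). Of its 11 regions, 8 were open in all 6 samples and 0 were lost or gained. The region across its start, chr2:26502827-26504380, which contains the promoter shown above, covered 1178, 866 and 1145 bases in wild type and 1309, 1546 and 1250 in knockout. Every knockout value was above the wild-type values there (ratio of means 1.29, exact permutation p = 0.1, adjusted p = 0.253).

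Within Notch1, chr2:26474971-26475438 was narrower in every knockout sample (365, 370 and 299 bases against 400, 401 and 412), the single region of the set with that pattern. A region 3523 bp above the gene, chr2:26507345-26507860, had peaks of 516, 349 and 309 bases in wild type and of 251 bases in knockout sample 1 alone. A pair of small internal regions had peaks in wild-type samples 2 and 3 only and in knockout samples 2 and 3 only, respectively. Single regions of Notch1 thus differed in both directions, while its sum within 20 kb did not differ beyond the replicate spread. Within 50 kb, which takes in more of the neighbouring genes, open bases were lower in every knockout sample, 7739 against 8861 (exact permutation p = 0.1). Within 20 kb, 49.4% of all genes with a region were lower in this way, and the share within 50 kb was not computed.

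**Figure D3:**
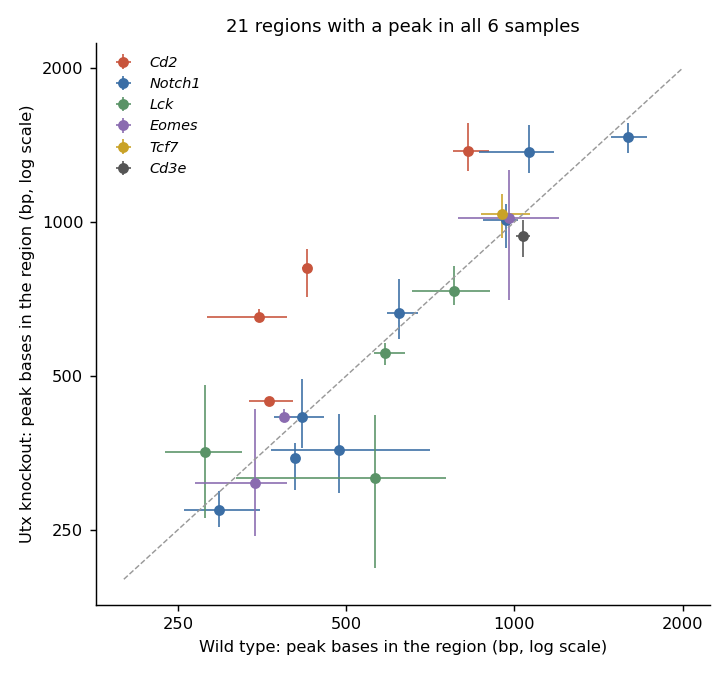
Bases covered by peaks in wild type (x axis) and in Utx knockout (y axis), on log scales, for the 21 regions near the genes that were open in all 6 samples; points are means of 3 samples, bars span the lowest to the highest sample, and the dashed line marks equality. The 4 Cd2 regions lie above the line, while most regions of the other genes lie on it within their bars.

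Among the 21 regions open in all samples, 6 were wider in every knockout sample and 1 narrower. Near all protein-coding genes, 11.9% of such regions were wider in this way and 27.7% narrower. Of the 17 member regions that are not at Cd2, 2 were wider and 1 narrower. The 6 were the 4 at Cd2, the Notch1 start and a region of Eomes. The median log2 ratio of coverage, knockout over wild type, was 0.04 over the 21, -0.08 over the 17 that are not at Cd2 and -0.11 over 26641 such regions near all protein-coding genes. Of the 5 largest differences in log2 coverage, 3 were at Cd2 (0.73 to 0.92). The others were the Lck region above (-0.80) and chr2:26492895-26493643 in Notch1 (-0.38), and in both of these the groups overlapped.

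Cd3e, a signalling chain of the CD3 complex, had 1 region in its window, and no region in the gene. That region, chr9:44986258-44987327, overlaps the neighbouring Cd3d and covered 1005, 1066 and 1036 bases in wild type and 947, 1011 and 856 in knockout. The groups overlapped (exact permutation p = 0.2).

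The cytotoxic effector genes of the set, Gzmb and Prf1, had few or no peaks. Gzmb, which encodes the protease that perforin helps into target cells, had 0 peaks within 20 kb in all 6 samples. Prf1, encoding the pore-forming perforin, differed in where its peaks lay. The lost region chr10:61305963-61306477, 1279 bp beyond the higher-numbered end of the gene, was covered over 458, 300 and 398 bases in wild type and had no knockout peak.

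At the other end of Prf1, the region chr10:61297523-61297804 overlapped the promoter stretch shown above and the first bases of the annotated gene span. It ended short of base 61297836, the gene start that sets the promoter window. It had peaks of 230 and 282 bases in knockout samples 1 and 2, and none in knockout sample 3 or in wild type. Open bases near Prf1 were 385 ± 79.8 in wild type and 171 ± 150 in Utx knockout (SD, n = 3 each; exact permutation p = 0.1, adjusted p = 0.169). Prf1 had at most 1 peak in a sample, so each value rests on a single peak call.

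**Figure D4:**
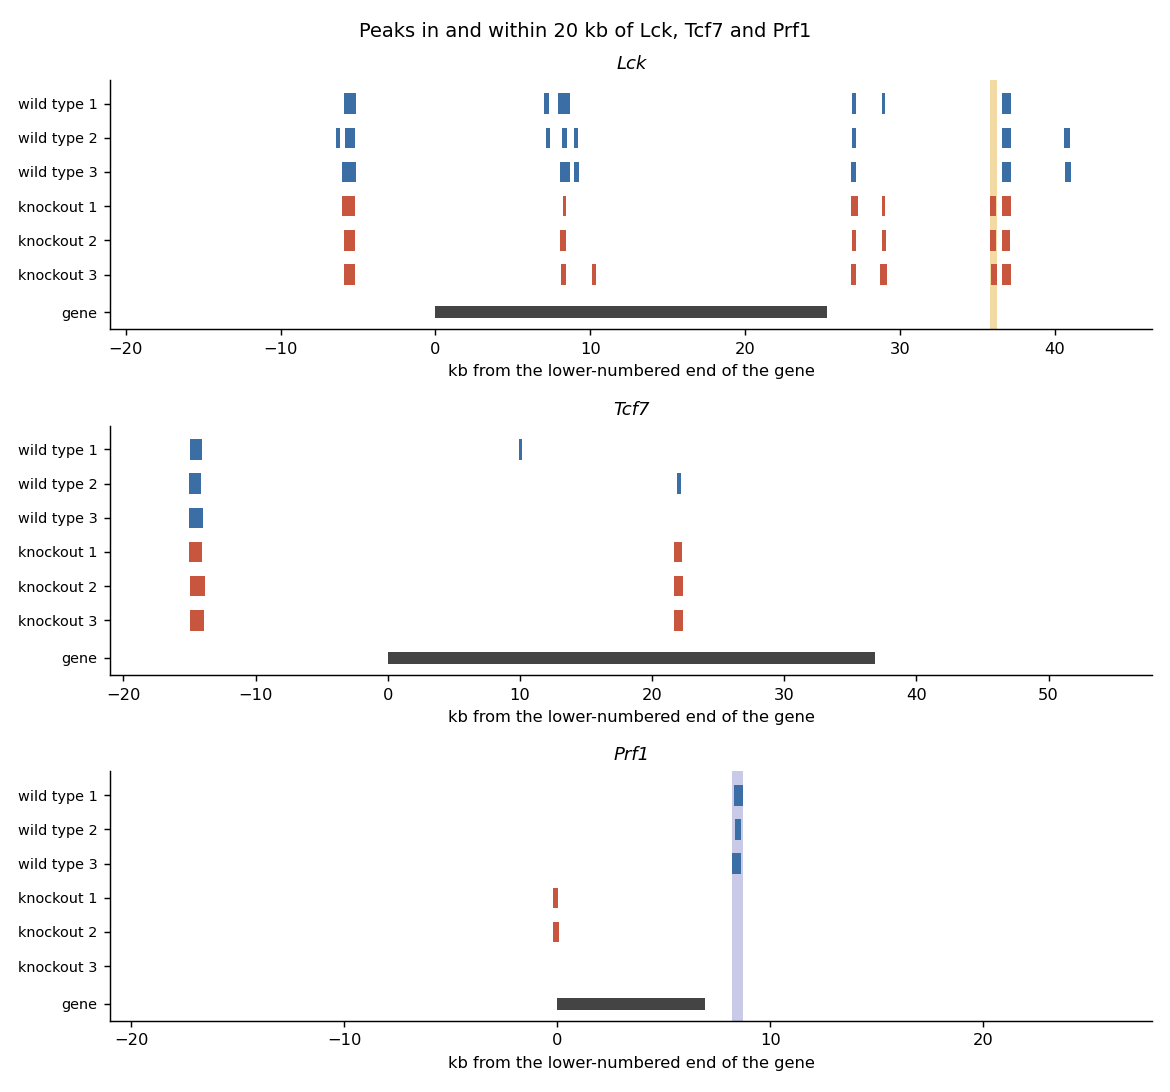
Peaks of each sample in and within 20 kb of Lck, Tcf7 and Prf1, to scale, against the distance in kb from the lower-numbered end of each gene (dark bar). The ochre band marks the gained region at Lck and the violet band the lost region at Prf1; inside Tcf7 a region is present in all 3 knockout samples and in wild-type sample 2.

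Within 20 kb the open bases of the T-box factor genes overlapped between the genotypes. Eomes had 3, 4 and 4 peaks in wild type and 4 in each knockout sample, and 906, 1253 and 1114 against 1233, 1296 and 1166 open bases (exact permutation p = 0.3). Its region chr9:118489551-118490016, 3419 bp above the gene, was wider in every knockout sample by a small amount, 382, 380 and 399 bases against 430, 408 and 406. Tbx21 had 1, 2 and 2 peaks in wild type and 2, 1 and 2 in knockout. An internal region, chr11:97103270-97103898, covered 617, 471 and 629 bases in wild type and 550, 0 and 266 in knockout, so 1 knockout sample lay within the wild-type range and the others below it. Open bases near Tbx21 were 617, 815 and 885 in wild type and 1005, 325 and 500 in knockout (exact permutation p = 0.6). Within 50 kb they were lower in every knockout sample, 2509 against 3224 in wild type (exact permutation p = 0.1). The share of all genes that were lower within 50 kb was not computed.

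Per kb of window, which allows genes of unequal length to be set side by side, Notch1 was the most open gene in wild type at 74.8 ± 4.67 open bases per kb (SD, n = 3). Lck (45.2 ± 2.69) and Cd2 (41.1 ± 5.23) followed and did not differ from each other beyond their spread. Eomes (22.8 ± 3.64) and Cd3e (20.3 ± 0.599) overlapped, and so did Tcf7 (14.6 ± 1.28) and Tbx21 (13.5 ± 2.42). Prf1 (8.21 ± 1.70), Bcl11b (1.16 ± 1.04) and Gzmb (0) came last. In knockout Cd2 had the highest value, 106 ± 15.7 open bases per kb, above 73.3 ± 0.914 at Notch1, and Tcf7 stood at 22.1 ± 1.69. These values rank windows, which take in neighbouring genes. All of the Cd3e value came from the region at Cd3d. In wild type the Skp1 region held 950 of the 1125 open bases near Tcf7. At Lck the wild-type mean fell from 2954 to 912 bases by nearest gene.

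Summed over the 10 genes there were 29, 35 and 31 peaks in wild type and 34, 35 and 34 in knockout, which overlap (exact permutation p = 0.4). As a share of all peaks of a sample this was 0.0549% ± 0.00505 in wild type and 0.0737% ± 0.00354 in Utx knockout (SD, n = 3 each; exact permutation p = 0.1). Open bases summed to 16081 ± 238 and 19227 ± 717. Without Cd2, a setting chosen after seeing the data, they summed to 13942 ± 93.5 and 13692 ± 245, and the peaks to 24, 29 and 25 against 25, 24 and 25. In the lists as deposited, the higher sum of open bases in knockout therefore rested on Cd2. Without Cd2 the sum was not computed at equal or scaled list length. The share of peaks stayed higher in knockout without Cd2, 0.0451% in wild type and 0.0530% in knockout, but the groups then overlapped (exact permutation p = 0.2). The number of these peaks was not higher, 26 on average in wild type and 24.7 in knockout, while every knockout list was shorter. A share takes list length into account only if shorter lists lose peaks evenly, which was not tested. The single lost region rested on the rule for a call: without wild-type sample 1 there were 4 lost regions.

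Of the 48 regions, 17 lay inside a member gene, 4 crossed its end and 27 lay outside it. The 4 gained regions and the lost one were all outside. Only 6 regions lay within 1 kb of an end of their own gene, and 7 lay equally close to a neighbouring gene's end, so part of the window values describe neighbours.

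Other genes of these lineages were examined as lists, whose counts are to be read against the shares over all genes given above: 49.4% with open bases lower in every knockout sample and 9.9% higher, and 10.7% of regions lost and 4.05% gained. Of 12 T cell receptor and co-receptor genes, Cd8a had no peak. Of the other 11, open bases were lower in every knockout sample for 7 and higher for 1. Cd247, the zeta chain of the receptor, lost 5 of 14 regions and had 10710, 11077 and 11475 open bases in wild type and 7611, 6923 and 7022 in knockout. Ptcra, the pre-T cell receptor alpha chain, lost 1 of 4 regions and Thy1 1 of 2. Cd6, a T cell surface receptor, went the other way, with 2 gained and 1 lost of 8. This list lost 9 of 47 regions and gained 2. Cd3d and Cd3g lie next to each other and have the same 3 regions and the same values, so they are 1 observation counted under 2 of the 7 genes.

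The 12 receptor signalling genes gained 14 and lost 6 of 125 regions, and open bases were higher in every knockout sample for 6 and lower for 2. Zap70, the kinase that acts after Lck, gained 2 of 7 regions, with 689, 1419 and 1346 open bases in wild type and 2537, 3499 and 3747 in knockout. Ubash3a, a phosphatase family regulator of T cell signalling, gained 5 and lost 2 of 19. Fyn, a kinase related to Lck, gained 3 and lost 1 of 18 and Prkcq gained 2 and lost 2 of 17, and in both the open bases of the groups overlapped.

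Among 15 transcription factors of early T and innate lymphoid cells, open bases were higher in every knockout sample for 5 and lower for 6. Lef1, a relative of Tcf7, gained 2 and lost 1 of 8 regions, with 1914, 2569 and 2342 open bases in wild type and 6130, 6781 and 6894 in knockout. Ets1 had 6105 ± 318 in wild type and 10980 ± 659 in Utx knockout (SD, n = 3 each). Ikzf2, which encodes Helios, lost 7 of 18 regions (8420 ± 1095 against 3726 ± 406 open bases), and Zbtb16, encoding PLZF, a factor of innate-like T cells, lost 3 of 16. The list as a whole gained 6 and lost 13 of 143.

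The other Notch pathway genes gained 7 and lost 19 of 144 regions, and open bases were higher in every knockout sample for 3 of the 13 genes and lower for 7. The lost share of 13.2% and the share of lower genes were near the 10.7% and 49.4% of all genes. Dtx1, a Notch target gene, had 1, 2 and 0 peaks in wild type and 5, 13 and 10 in knockout, with 3 gained of 13 regions. Notch2, a receptor that in mice directs marginal zone B cells, lost 9 of 31 regions and had 13986 ± 1243 open bases in wild type and 5890 ± 950 in Utx knockout (SD, n = 3 each). Maml3, a coactivator of Notch, lost 3 and gained 2 of 36, and Adam10, the protease that cuts Notch receptors, lost 3 of 9.

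Genes of cytotoxic granules and NK effectors gained 0 and lost 3 of 58 regions. Gzma had no peak, and of the 11 others open bases were lower in every knockout sample for 6 and higher for 0, a share of lower genes near the 49.4% of all genes. Srgn, the granule proteoglycan, lost 2 of 16 regions and Fasl, the ligand of the death receptor Fas, 1 of 7. Of 13 NK and cytokine receptor genes, open bases were higher for 3 and lower for 4, with 4 gained and 7 lost of 84 regions. Slamf7 gained 2 of 14, with 8, 10 and 8 peaks in wild type and 12, 11 and 11 in knockout. Cd48, a receptor ligand of the same family, gained 2 of 8. The windows of Slamf7 and Cd48 overlap, and a gained region is counted under both genes. Il12rb2, a chain of the interleukin 12 receptor, lost 4 of 8, and Cd226 lost 1 of 9.

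**Figure D5:**
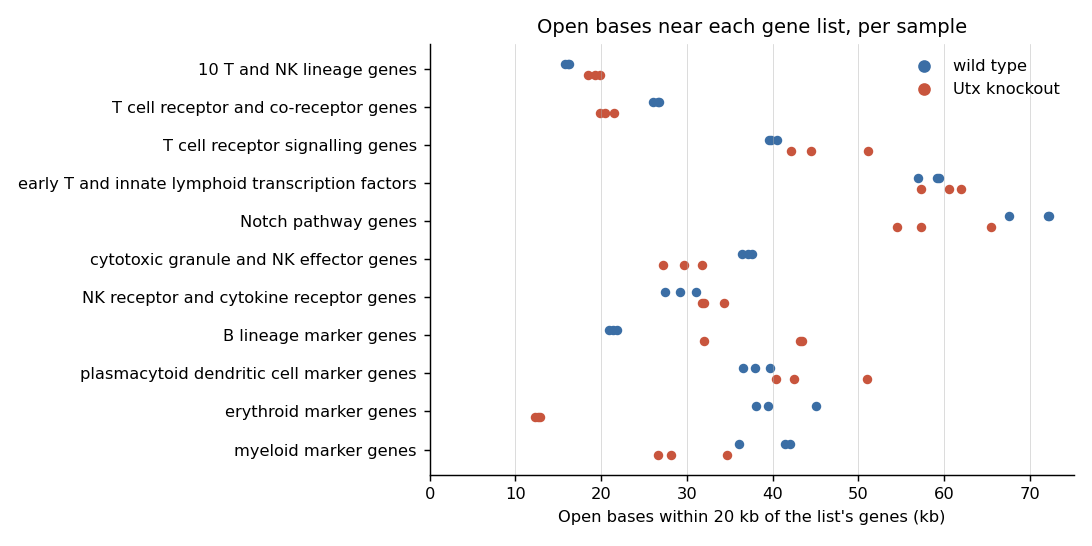
Bases covered by peaks, in kb, within 20 kb of the genes of each list (rows), with 1 point per sample; overlapping windows were counted once. The 10 T and NK genes lie higher in knockout. In the lists as deposited this does not hold without Cd2 (13942 bases in wild type and 13692 in knockout). The receptor signalling, NK receptor, B lineage and plasmacytoid dendritic cell lists also lie higher in every knockout sample. The T cell receptor, Notch pathway, cytotoxic, erythroid and myeloid lists lie lower in every knockout sample. For the early T and innate lymphoid factors the groups overlap.

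Markers of other cell types differed between the same samples. Counts for the marker lists are again to be read against the shares over all genes. Of all regions near genes 4.05% were gained and 10.7% lost, and 13.9% of genes had a gained region. Open bases were higher in every knockout sample for 9.9% of genes and lower for 49.4%. Near 10 B lineage marker genes there were 43, 42 and 40 peaks in wild type and 60, 74 and 74 in knockout, with 16 gained and 1 lost of 88 regions. All 10 had at least 1 region, and 7 of the 10 had a gained one. Open bases were higher in every knockout sample for 6 of these genes and lower for 0. Pax5, the factor of B cell commitment, had 913 ± 355 open bases in wild type and 5318 ± 1369 in knockout, Ebf1 1823 ± 360 and 6336 ± 1236, and Cd22 1650 ± 160 and 3443 ± 555 (SD, n = 3 each), while the open bases near Cd79a overlapped. Near 8 plasmacytoid dendritic cell markers there were 64 to 77 peaks in wild type and 69 to 77 in knockout, with 8 gained and 2 lost of 98 regions. Their open bases were 36546 to 39687 in wild type and 40406 to 50956 in knockout. By gene, they were higher in every knockout sample for 4 of the 8 and lower for 1. Tcf4 gained 4 of 33, Spib 3 of 10 and Irf8 1 of 15 with 1 lost, whereas Runx2 lost 1 of 25.

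Near 10 erythroid markers there were 56 to 62 peaks in wild type and 22 in each knockout sample, with 29 lost of 68 regions, among them 6 of 12 at Ank1, 6 of 8 at Hbb-bs, 4 of 6 at Gata1 and 3 of 7 at Hba-a1. Among the 68 regions 1 was gained, and open bases were lower in every knockout sample for all 10 genes. Globin genes have near-identical copies, so their values are uncertain. Near 10 myeloid markers there were 56 to 61 and 50 to 54 peaks, and each of those genes had a region. Of their 69 regions 2 were gained and 3 lost. Open bases were lower in every knockout sample for 6 of the myeloid genes and higher for 1. Mpo lost 1 of 11 regions, Prtn3 1 of 11 and Csf3r 1 of 8, and Itgam gained 2 of 17. Of the genes that define mature T and NK cells, Gzmb, Gzma and Cd8a had no peak within 20 kb in any sample. Cd3e had none in its body and 1 within 20 kb in every sample, at Cd3d. Others also had peaks within 20 kb in every sample. Wild-type samples had 13 to 15 near Cd247 and 7 or 8 near each of Nkg7 and Klrb1c. Near Cd4 there were 5 and near Cd5 4 or 5. These windows can take in neighbouring genes. The part of other cell types in the differences at Cd2, Lck, Tcf7 and Prf1 was not tested.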

How the data were processed

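Per the submitters' processing notes, which give no version, MACS2 and the mouse build mm10 were used, and the file labels carry a p threshold. The deposited lists hold chromosome, start and end of each peak, called per sample; the aligner and read filters were not given in the sources used here. All 6 lists entered every comparison. Peaks sharing at least 1 bp were merged into regions. Gene spans came from RefSeq GRCm38.p6, and promoter sequences and strands from its promoter table. Open bases are bases covered by peaks within 20 kb of a gene, limited to that window, and per region the summed width of a sample's peaks. Genotypes were compared with exact two-sided permutation tests (3 against 3, smallest p 0.1) with Benjamini-Hochberg adjustment over all genes or regions tested; no read counts were used. All 10 members, their lost and gained regions, their starts, the 5 largest width differences and up to 4 genes of each other list with the most lost plus gained regions are named; Cd58, of the NK receptor list, was not in the annotation used here. Other regions named were chosen after their values were seen. The members and lists were chosen with earlier results of these data known. Calling functions were tested on simulated data. Alternatives were leaving out each sample, wider peaks, equal list lengths, other distances, the nearest gene, other region rules, scaling, a replicate block and, added later, leaving out Cd2. Computations used Python 3.11.15, numpy 2.4.6 and pandas 2.3.3.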

Additional observations from a re-analysis of the deposited data

How the results depend on the processing

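At Cd2 the mean of open bases was higher in knockout under every alternative run, by 183 to 4259, though in the gene body alone (183) the groups overlapped. Leaving out 1 sample in turn gave 4 to 5 gained and 1 to 4 lost regions near the genes (4 without wild-type sample 1), 2 to 3 genes with more and 2 with fewer open bases in every knockout sample, 6 to 7 wider and 1 to 4 narrower shared regions, a peak difference of 1.33 to 4.33, a share difference of 0.0166 to 0.0215 percentage points and an open base difference of 2797 to 3513. Gained regions numbered 0 in the gene bodies alone and 1 without Cd2. Lost regions numbered 0 in gene bodies or with the widest 50% of peaks, 2 within 50 kb or with 50% coverage, and 5 where 2 of 3 samples sufficed. Genes with more open bases numbered 1 in gene bodies or without Cd2, and 5 when scaled to list length. Genes with fewer numbered 0 with the widest 50% or scaled, 2 by nearest gene and 3 within 50 kb. Wider shared regions numbered 2 without Cd2. The peak difference turned to -0.667 within 50 kb, -1 in gene bodies and -1.33 without Cd2, and the open base difference to -55.7 in gene bodies and -250 without Cd2. The peak difference was 2.67 in the lists as deposited, 8 with equal list lengths and 9.79 scaled (exact permutation p = 0.1 in both alternatives). The open base difference was 3146, 4440 and 6993 in the same order. Equal length dropped narrow peaks mostly from wild type, and scaling raised knockout values by construction, so neither is a neutral correction. Within 50 kb the open base difference was 1024, with overlapping groups (exact permutation p = 0.3).

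Samples with the same number did not deviate together (correlations -0.0300, 0.0250 and 0.0101 over 31159 regions), so the numbers were not taken as pairs. With the replicate block, 3 genes had fewer open bases in all 3 differences and 6 shared regions were narrower, and the exact p of the open base difference was 0.25, the smallest possible.

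Among single genes, open bases turned to 427 (within 50 kb) and 111 (scaled) at Cd3e, -34.7 (gene body) at Eomes, 28 (gene body) at Prf1, and 274 (equal list lengths) and 412 (scaled) at Lck, where they were -500 in the gene body or by nearest gene and -688 within 50 kb. At Notch1 they ranged from -319 to 81.2 on leaving out 1 sample (81.2 without wild-type sample 1) and turned to 31.3 with equal list lengths, 196 in the gene body, 9 by nearest gene and 1244 scaled, but were -1122 within 50 kb. At Tbx21 they were -162 within 20 kb and -716 within 50 kb. For each, the cause was not tested. Depth is unknown, so a missing peak is not shown to be closed chromatin.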
